A study of Mus musculus with 85 samples.

Results

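The genes described here are 50 genes that cells switch on as they prepare for and pass through division, in G2 phase and mitosis. They were chosen by name, and each was read on its brightest probe set, the one with the highest mean log2 value over the 5 populations weighted equally. Of the 50, 48 had a probe set annotated to a single gene symbol, and all 48 were measured, meaning above background (a log2 value over 5) in at least 3 cells. They stand among 18194 genes with such a probe set, of which 10695 were measured. Ccnb1 was not listed in the probe table and Hjurp was listed only on probe sets shared with other symbols, so both were not analysed here.

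Single cells were sorted from mouse embryos at successive steps from endothelium to blood stem cells, and the RNA of each was amplified and hybridised to its own Affymetrix array. Endothelial cells (EC) numbered 7 and hemogenic endothelial cells (HEC), the endothelium that gives rise to blood, also 7, and both came from the caudal region of E10.5 embryos carrying eR1-GFP, in which an enhancer of Runx1 drives GFP. They were CD31+ and lacked Ter119, CD45 and CD41, with EC sorted as GFP- and HEC as GFP+. Hematopoietic cluster cells, which bud from the aortic wall, came from wild-type embryos as c-Kit+, CD31+, CD45+ and SSEA1-, from the caudal region at E10.5 (28 cells) and from the aorta-gonad-mesonephros region at E12.5 (16 cells). Hematopoietic stem cells (HSC) came from fetal liver of wild-type embryos at E14.5, gated as CD150+, CD48-, c-Kit+, Sca-1+, Lin- and Mac-1+ cells. The values of 2 of the 27 HSC arrays, cells 20 and 21, were nearly identical (r = 0.991 over the whole array, and at most 0.859 in any other pair), so their mean stands as 1 cell, leaving 26 HSC and 84 cells in all. The labels tie no cell to an animal, a litter or a culture. Each population is therefore a single sample, differences have no test, and every SD is over cells.

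The depth of a cell is given here by the share of measured genes above background, whose median was 32% in EC, 43.4% in HEC, 55.7 and 44.5% in cluster cells of E10.5 and E12.5, and 37.4% in HSC. The number of arrays limits the precision. Markers of other cell types were counted by cell. At least 1 of 6 endothelial markers passed background in all HEC and all EC but 1, and also in 21 of 26 HSC and in 18 of 28 and 2 of 16 cluster cells of the earlier and later age. In HSC and the E10.5 cluster this was most often Tek. A germ-cell marker was in 12 HSC, 11 of them with Ddx4, and in 1 cell of each other population. Of 5 macrophage markers, at least 1 was in 7 E10.5 and 4 E12.5 cluster cells and 5 HSC, of 4 mesenchyme markers in 6, 5 and 2 of these, and of 4 hepatocyte markers in 0, 1 and 2. The part of these transcripts in the results was not tested. Of 6 cells whose markers go against their gate, EC 3 held 3 of the 4 germ-cell markers (Dppa3, Pou5f1 and Dnd1) with Ddx4 at background, the complement genes C1qa, C1qb and C1qc of macrophages were bright in E12.5 cluster cells 3, 6 and 10, and HSC 5 and 7 held Lyve1, Stab2 and endothelial genes without Ptprc. The comparisons that rest on these cells are also given without them.

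Entry into mitosis is driven by the kinase CDK1 bound to cyclin B, which the phosphatase CDC25C activates. Many of the genes transcribed for this phase carry in their promoters a cell cycle genes homology region (CHR), the element bound by the DREAM complex in resting cells and by MuvB with B-MYB and FOXM1 in dividing cells, often beside CCAAT boxes bound by NF-Y. Chromosomes are then condensed, a spindle is built, the checkpoint holds the anaphase-promoting complex until kinetochores are attached, and cytokinesis separates the daughters. In blood formation these genes are widely used to tell dividing cells from resting ones, since adult stem cells are mostly quiescent whereas those of the fetal liver divide.

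The promoters are shown because many of these genes share short motifs near the start site, which the choice of genes did not use. RefSeq promoters of assembly GRCm38.p6, running from 250 bases before to 50 after the start site, covered 45 of the 50 genes with 49 promoters. The CHR was searched as TTTGAA or TTCGAA and the CCAAT box as CCAAT, both on either strand. TTCGAA is its own reverse complement and was counted once, and a CHR and a CCAAT match can share 1 letter. A CHR match lay in 37 of the 49 promoters (75.5%), against 19.2% of all 32851 promoters in the table. A CCAAT match lay in 75.5% of them against 37.4% of all, at least 2 CCAAT matches in 59.2% against 11.7%, and both motifs in 61.2% against 7.52%. Of the 50 CHR matches, 35 began at position -50 or later. Of 35 S-phase genes used for comparison below, 25 had a promoter in the table, and a CHR match lay in 21.4%, a CCAAT match in 75%, at least 2 CCAAT matches in 50% and both motifs in 5 of their 28 promoters. Of a list of 65 other G2 and mitosis genes, of which the 61 measured ones are counted below, 53 had a promoter in the table. A CHR match lay in 66.7%, a CCAAT match in 71.7%, at least 2 CCAAT matches in 35% and both motifs in 51.7% of their 60 promoters. Frequent CHR matches are thus not particular to the genes described here. The letters before the start site, from position -120 to -1, are printed for 6 genes, read 5′ to 3′ along the gene's own strand, with matches in capitals (TTCAAA and ATTGG are the reverse-strand forms). Cdk1 (chr10:69352913-69353032, minus strand), Cdc20 (chr4:118437344-118437463, minus strand), Ube2c (chr2:164769809-164769928, plus strand) and Hmgb2 (chr8:57511723-57511842, plus strand) each hold CHR and at least 2 CCAAT matches. Kif11 (chr19:37376262-37376381, plus strand) holds 1 of each, and Birc5 (chr11:117849117-117849236, plus strand) is 1 of 5 genes with neither motif in the window, with G2e3, Nuf2, Nusap1 and Tacc3.
Cdk1: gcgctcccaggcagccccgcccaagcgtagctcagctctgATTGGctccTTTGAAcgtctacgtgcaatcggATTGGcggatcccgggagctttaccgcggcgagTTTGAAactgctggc
Cdc20: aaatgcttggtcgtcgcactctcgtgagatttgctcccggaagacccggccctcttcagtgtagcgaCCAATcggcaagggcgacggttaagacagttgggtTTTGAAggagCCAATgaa
Ube2c: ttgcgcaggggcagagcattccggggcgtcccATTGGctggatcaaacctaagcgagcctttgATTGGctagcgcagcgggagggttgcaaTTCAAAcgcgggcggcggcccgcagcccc
Hmgb2: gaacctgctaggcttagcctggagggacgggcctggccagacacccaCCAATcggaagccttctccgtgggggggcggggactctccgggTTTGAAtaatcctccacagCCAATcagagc
Kif11: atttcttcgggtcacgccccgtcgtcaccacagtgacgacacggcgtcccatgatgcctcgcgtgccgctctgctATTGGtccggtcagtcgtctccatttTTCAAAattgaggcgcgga
Birc5: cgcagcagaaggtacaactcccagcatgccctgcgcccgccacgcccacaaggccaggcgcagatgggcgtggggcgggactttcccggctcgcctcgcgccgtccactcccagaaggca
Birc5 is shown beside the others because it was among the genes that differed most between cluster cells and HSC, as did Cdc20. A match is a description of letters and not a binding site.

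Single cells differed widely in how many of the 48 genes they held. The number above background had a lowest value of 15, a median of 25 and a highest value of 33 in EC, and 8, 27 and 43 in HEC. In E10.5 cluster cells it was 22, 38.5 and 47, in E12.5 cluster cells 4, 40 and 45, and in HSC 4, 9.5 and 47. As means these are 25.6 ± 6.32 (SD over cells, n = 7) in EC, 27.6 ± 12.6 (n = 7) in HEC, 37.9 ± 6.10 (n = 28) in the E10.5 cluster, 31.1 ± 16.1 (n = 16) in the E12.5 cluster and 16.6 ± 14.2 (n = 26) in HSC. E10.5 cluster cells all held 22 or more, whereas HSC reached as high as any population but mostly stayed low. The ranges of all 5 populations overlap.

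**Figure D1:**
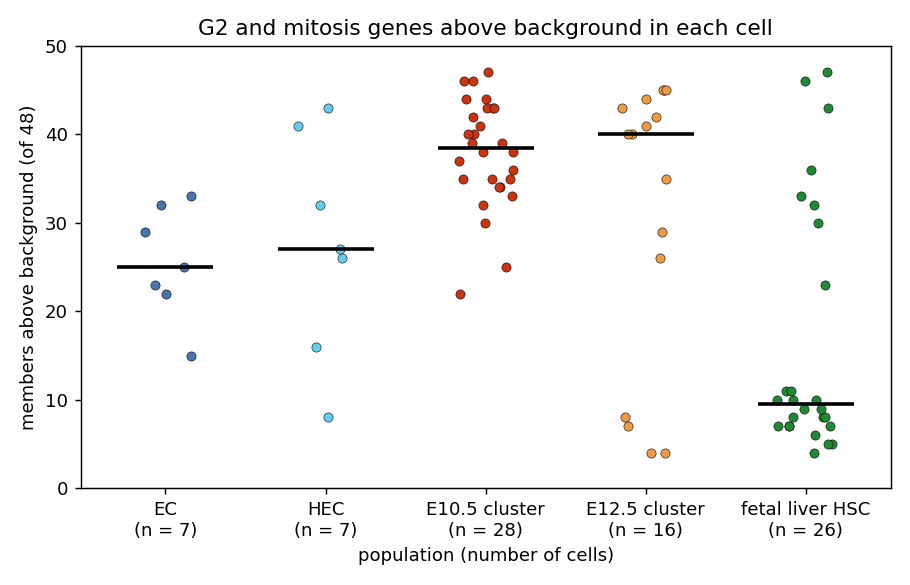
Number of the 48 G2 and mitosis genes above background (log2 value over 5) in each cell, by population, 1 point per cell, with the median as a black line. HSC split into 18 cells at 11 or fewer and 8 at 23 or more, and E12.5 cluster cells into 4 at 8 or fewer and 12 at 26 or more, while 26 of 28 E10.5 cluster cells hold 30 or more.

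The counts in HSC left a wide gap. Of 26 HSC, 18 held 11 or fewer of the genes and 8 held 23 or more, with none between. The 8 were cells 7, 6, 10, 16, 17, 15, 14 and 1, with 23, 30, 32, 33, 36, 43, 46 and 47 genes. Cell 1 lacked only Trip13, and cell 14 lacked only Kif20b and Nek2. Cell 7 is 1 of the 2 HSC with endothelial genes, and the other, cell 5, held 4 genes, so that 7 of the other 24 HSC lay above the gap. E12.5 cluster cells showed a gap as well, with 4 cells at 8 or fewer and 12 at 26 or more. The 4 were cells 1, 3, 11 and 7, with 4, 4, 7 and 8 genes. Cell 3 is 1 of the 3 with complement genes, and the other 2, cells 6 and 10, held 26 and 29. Cells 1, 7 and 11 expressed Kit at 13.49, 12.80 and 9.39, while cells 3, 6 and 10 had it at 3.53, 4.06 and 2.45. Cell 11 also held the mesenchyme marker Pdgfrb, at 12.27, as 1 of 5 E12.5 cluster cells with that gene. Depth moved with these counts, since E12.5 cluster cell 1 had 22% and cells 3, 7 and 11 had 32, 33.5 and 34.3% of measured genes above background, and its part in them was not tested. Over cells the mean level of the genes had r = 0.82 with the number of probe sets above background in the E12.5 cluster, 0.57 in HSC and 0.71 in the E10.5 cluster. Some HSC departed from this order, as cell 16 had 33 of the genes at 30.7% of measured genes and cell 4 had 10 at 45.5%.

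**Figure D2:**
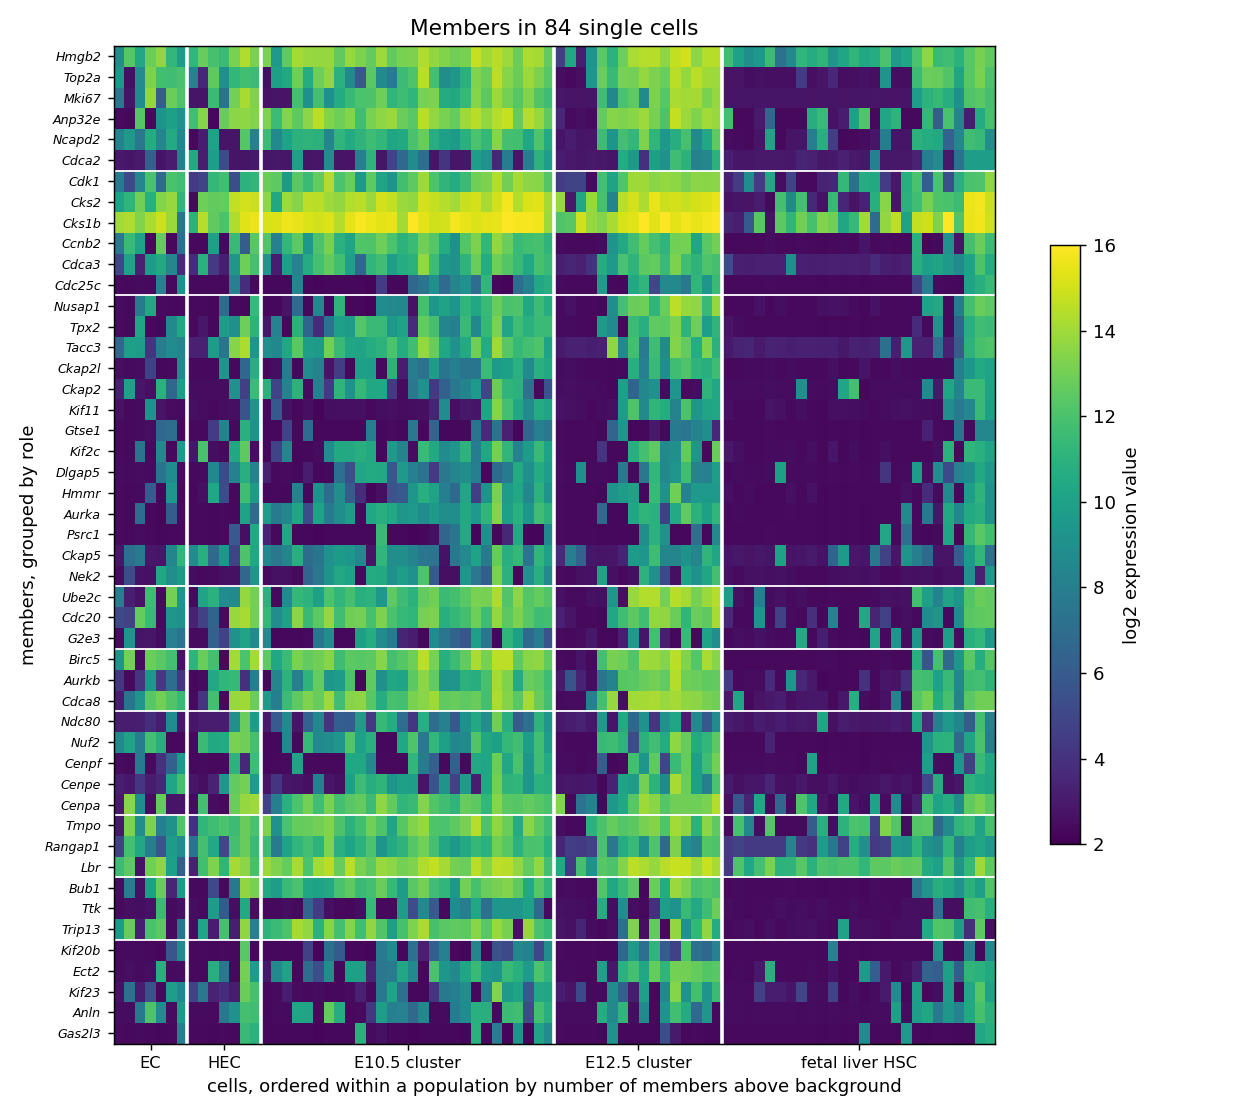
Log2 value of each of the 48 genes (rows, grouped by role) in each of 84 cells (columns), with cells ordered within a population by the number of genes above background. Hmgb2, Cks1b and Lbr are bright in nearly every cell, while most other rows are dark in the first 18 HSC and the first 4 E12.5 cluster cells.

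A few of the genes were above background in most cells of every population. Hmgb2, a chromatin protein that bends DNA, was above background in 82 of 84 cells, Cks1b, a small CDK subunit that also serves the degradation of CDK inhibitors, in 81, and Lbr, which tethers heterochromatin to the inner nuclear membrane, in 80. Tmpo, a lamina-associated protein, and Cks2 followed with 71 each, Rangap1, the GTPase activator of nuclear transport, with 68, and Cdk1 with 67. At the other end Gas2l3, a cytoskeletal linker of cytokinesis, was above background in 15 cells, Psrc1 in 21, Gtse1 in 23 and Kif11 in 27. How often a gene passes also depends on its probe set, so this order is one of detection. All 18 HSC below the gap held Hmgb2, and 17 of them held Lbr.

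Many of the remaining genes were held by few HSC, and often by the same ones. Others were held more widely, as Cenpa was above background in 15 of 26 HSC, Anp32e in 14 and Ncapd2 in 12. Mki67, which coats mitotic chromosomes, Birc5 (survivin) and Bub1, a checkpoint kinase, were each above background in 8 of 26 HSC (30.8%, exact Clopper-Pearson 95% interval 14.3 to 51.8%, for counting error alone), and these were the same 8 cells for all 3 genes. Aurkb was held by those 8 and cell 20, and Top2a, which untangles sister DNA, by those 8 and cell 19. Ccnb2, the measured cyclin B, was above background in 5 of 26 HSC (19.2%, 6.55 to 39.4%), which were cells 1, 7, 14, 15 and 16. Nek2, a kinase of centrosome separation, was above background in 2, cells 1 and 15. In contrast 28 of 28 E10.5 cluster cells held Birc5, Bub1 and Ccnb2 (100%, 87.7 to 100%).

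In E10.5 cluster cells 15 of the 48 genes were above background in every cell and 41 in at least 50% of cells. Those in every cell were Hmgb2, Anp32e and Ncapd2 of chromatin, Cdk1, Cks1b, Cks2 and Ccnb2, the spindle protein Tacc3, Cdc20, Birc5 and Cdca8 of the passenger complex, Tmpo, Rangap1 and Lbr of the nuclear envelope, and Bub1. In E12.5 cluster cells 43 genes were in at least 50% of cells but only Cks1b was in all 16. EC had 5 genes in every cell (Hmgb2, Cdk1, Cks2, Cks1b and Ncapd2) and 26 in at least 50%, HEC had 3 (Hmgb2, Cks1b and Rangap1) and 30, and HSC had Hmgb2 alone and 9. Psrc1, a spindle protein, was above background in 0 of 7 EC, where the interval reaches 41%. The same counts were not made over all measured genes, and the number of cells and the depth differ between populations. Median depth was 55.7% in E10.5 and 44.5% in E12.5 cluster cells, 32% in EC, 43.4% in HEC and 37.4% in HSC. The part of depth in these counts was not tested.

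**Figure D3:**
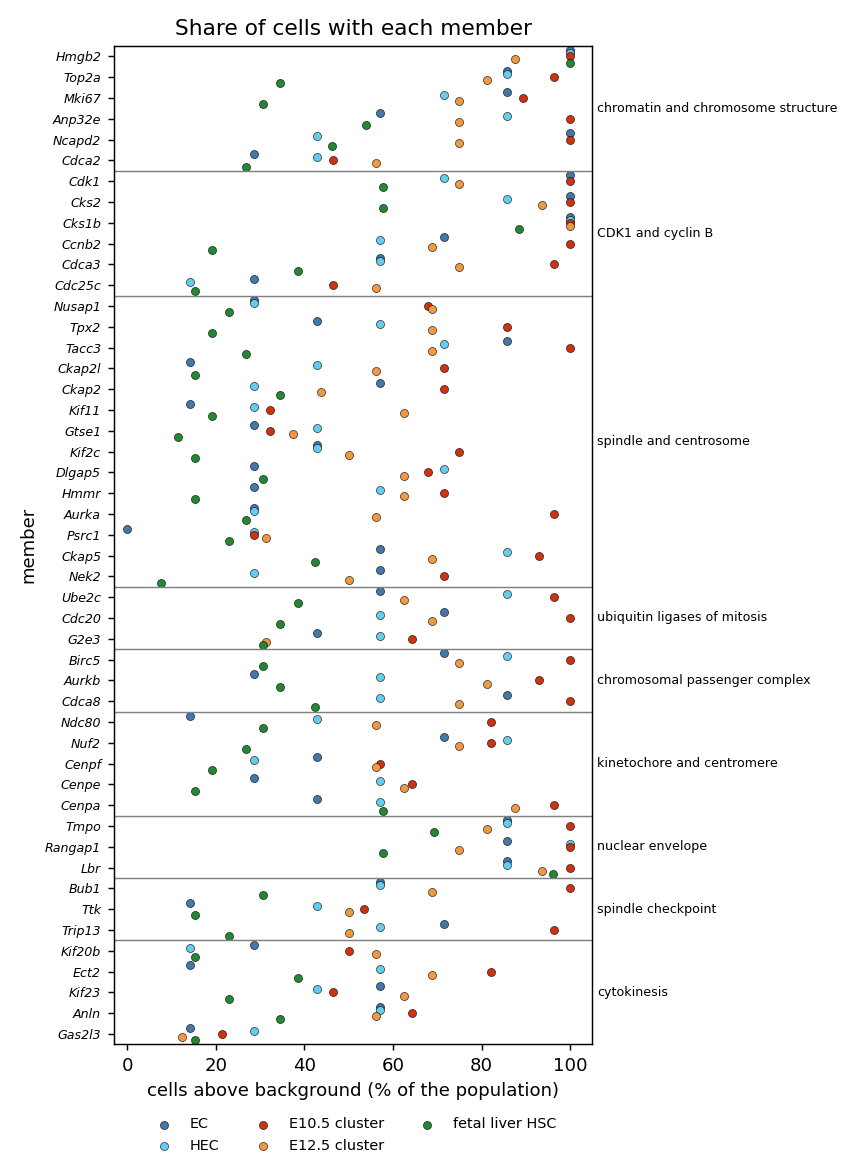
Share of cells above background (%) for each of the 48 genes, grouped by role, in EC (7 cells), HEC (7), cluster cells of E10.5 (28) and E12.5 (16) and HSC (26). HSC points lie leftmost for 32 of the 48 genes, while Hmgb2, Lbr and Cks1b reach 100, 96.2 and 88.5% of HSC. Depth and the number of cells differ between populations.

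Differences between populations are given below as differences of mean log2 values over cells, and a gene is counted as higher or lower at 1 log2 unit or more. They were read against all measured genes, whose median difference was 0.82 in HEC set against EC, 0.71 in the E10.5 cluster set against HEC, -0.66 between the 2 ages of cluster, and -0.54 and -1.29 in HSC set against the E12.5 and the E10.5 cluster. The comparisons share populations, so they are not independent of each other.

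**Figure D4:**
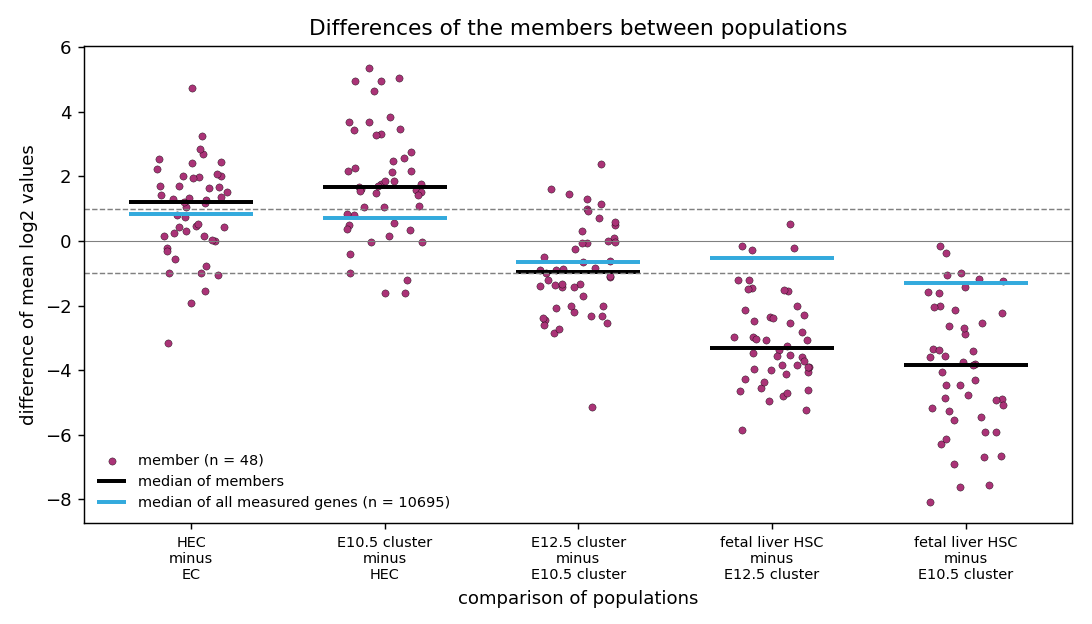
Difference of mean log2 values between populations for each of the 48 genes (points), with their median (black line) and the median of all 10695 measured genes (blue line), and dashed lines at 1 and -1. The genes lie near the median of all measured genes in HEC minus EC and E12.5 minus E10.5 cluster, and far under it in both comparisons of HSC.

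From EC to HEC, 26 of the 48 genes were higher and 4 lower, where 45.9% of all measured genes were higher and 7.36% lower. Their median difference was 1.19. The direction depends on the scaling. With cells shifted to an equal median 12 were higher and 10 lower, where 26.4 and 30.9% of all measured genes were. With quantile normalization 9 were higher and 11 lower, where 24.6 and 23.1% of all measured genes were. The median of the 48 was then -0.20, where that of all measured genes was near 0. Without the 6 cells, of which EC 3 enters this comparison, 23 were higher and 2 lower with a median of 0.89, below the 1.00 of all measured genes. Of all measured genes 50.1% were then higher and 6.32% lower. Leaving out HEC 3 brought the median of the 48 to 0.43, HEC 2 to 0.61 and EC 2 to 0.77. Anp32e, a histone chaperone, differed most, at 4.73, with lowest, median and highest values of 2.35, 9.15 and 12.33 in EC and of 2.32, 13.39 and 13.62 in HEC. Its probe set used here was above background in 4 EC and 6 HEC. Another one was so in 6 EC and 7 HEC, with r = 0.50 to the one used. The difference ran from 3.38 to 5.79 over the other settings. Ect2, the exchange factor that sets the cleavage plane, differed by 3.24, Ckap5, a microtubule polymerase, by 2.86, the kinetochore subunit Nuf2 by 2.71 and Ube2c, the ubiquitin-conjugating enzyme of the anaphase-promoting complex, by 2.53. Of 5 kinetochore and centromere genes 4 were higher, a count that was 3 with shifted cells and 1 with quantile normalization. None of the 6 genes around CDK1 reached 1 unit either way, although 3 were lower with shifted cells and 2 with quantile normalization. The 4 lower genes were the condensin subunit Ncapd2 (-3.16), Nek2 (-1.93), the spindle protein Ckap2 (-1.56) and the passenger protein Cdca8 (-1.05). Ncapd2 was above background in 7 of 7 EC, at 7.63, 8.54 and 10.67, and in 3 of 7 HEC, at 2.33, 3.10 and 12.31. Its values overlap between the populations, as HEC 2, 3 and 7 were at 8.10, 12.31 and 10.11 and the other HEC were at background. Cdca8 did not keep its sign when HEC 4 or HEC 5 was left out (0.02 and 0.01), nor with medians over cells (0.35). Ckap2 was at -0.83 without EC 3.

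From HEC to E10.5 cluster cells, 34 of the 48 were higher and 3 lower, where 43.1% of all measured genes were higher and 15.7% lower. Their median difference was 1.68. All 6 genes around CDK1, all 3 of the passenger complex and all 3 of the nuclear envelope were higher, and with quantile normalization 5, 3 and 2 of these were. Aurka, the kinase of the spindle poles, differed most, by 5.37, with values of 2.32, 2.34 and 10.07 in HEC and 2.33, 9.63 and 13.42 in E10.5 cluster cells. It was above background in 2 of 7 HEC and in 27 of 28 E10.5 cluster cells. Ncapd2 followed at 5.05, Bub1 at 4.96, Ccnb2 at 4.95 and Trip13, the ATPase that remodels checkpoint proteins, at 4.66. Ccnb2 had values of 2.33, 6.13 and 12.38 in HEC and 8.10, 12.01 and 13.72 in E10.5 cluster cells. Cdk1 itself had values of 4.4, 11.04 and 11.76 in HEC and 9.23, 12.52 and 14.37 in E10.5 cluster cells, a difference of 3.68. For these genes nearly all cluster cells were high, whereas HEC held both high and low cells, and the ranges overlap. Nuf2 (-1.60), Gtse1 (-1.59) and Kif23 (-1.22), a motor of the central spindle, were lower. Single HEC carry the calls of Gtse1 and Kif23. Without HEC 3 Gtse1 was at -0.73 and Kif23 at -0.21, and without HEC 2 Kif23 was at -0.36. Nuf2 ranged from -2.95 to -1.14 with 1 cell left out. Quantile normalization gave 27 higher and 7 lower, where 26.8 and 23.4% of all measured genes were. Over only the 5 HEC and 22 E10.5 cluster cells whose array controls both sat at the value shared across arrays, 21 were higher and 7 lower, where 41.5% of all measured genes were higher and 18.2% lower. The median of the 48 was then 0.58, beside 0.66 for all measured genes.

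From E10.5 to E12.5 cluster cells, 5 of the 48 were higher and 24 lower, where 5.47% of all measured genes were higher and 39.9% lower. The shares of the genes, 10.4 and 50%, were not far from these, and the median difference was -0.95. The mean hides the shape, since the median count per cell was 40 at E12.5 and 38.5 at E10.5. With medians over cells 11 genes were higher and 10 lower, with a median of 0.24. Of all measured genes 4.03% were then higher and 33.2% lower, with a median of -0.06. Without the 6 cells whose markers go against their gate, 10 were higher and 18 lower with a median of -0.52, where 5.66% of all measured genes were higher and 39.6% lower. With quantile normalization 9 were higher and 14 lower, where 16.3 and 18.2% of all measured genes were. Trip13 differed most, by -5.15, with values of 2.60, 12.41 and 14.21 at E10.5 and 2.31, 5.24 and 13.75 at E12.5. It was above background in 27 of 28 and in 8 of 16 cells. Ccnb2 differed by -2.85, Cdc20, the activator of the anaphase-promoting complex, by -2.72, Anp32e by -2.60 and Bub1 by -2.54. For these 4 genes the highest values at E12.5 were 13.05, 14.19, 14.71 and 13.89, beside 13.72, 13.79, 14.76 and 13.42 at E10.5, and 4 or 5 of the 16 E12.5 cells lay at background. With medians over cells Anp32e, Bub1 and Cdc20 differed by -0.08, -0.04 and -0.22. The 5 higher genes were Kif11, the motor that drives spindle poles apart (2.39), the microtubule bundler Nusap1 (1.61), Cdc25c (1.46), Kif23 (1.30) and Cdca2, a phosphatase adaptor of anaphase chromatin (1.14). Kif11 had values of 2.27, 2.57 and 13.41 at E10.5 and 2.37, 8.94 and 12.11 at E12.5, and it was above background in 9 of 28 and 10 of 16 cells. The count of 5 higher genes became 9 without E12.5 cell 1, 3, 7 or 11, 8 without cell 10 and 3 without cell 15, and without cell 3 the median of the 48 was -0.48.

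From E12.5 cluster cells to HSC, 0 of the 48 were higher and 44 lower, where 7.91% of all measured genes were higher and 36.9% lower. Their median difference was -3.32. Birc5 differed most, at -5.86, with values of 2.36, 13 and 14.56 in E12.5 cluster cells and 2.30, 2.38 and 12.40 in HSC. Top2a differed by -5.23, with values of 2.36, 13.12 and 14.56 in E12.5 cluster cells and 2.51, 2.73 and 13.21 in HSC. Nusap1 (-4.96), Cks2 (-4.81) and Ccnb2 (-4.70) came next. The ranges overlap in all 5, and between 11 and 21 of the 26 HSC were at background. The 4 genes short of 1 unit were Gas2l3 (0.52), Psrc1 (-0.17), the ubiquitin ligase G2e3 (-0.20) and Ckap2 (-0.29).

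From E10.5 cluster cells to HSC, 0 of the 48 were higher and 45 lower, where 5.01% of all measured genes were higher and 55.5% lower. Their median difference was -3.83. Birc5 again differed most, at -8.07, with values of 10.37, 12.63 and 14.62 in E10.5 cluster cells against the HSC values above. Trip13 differed by -7.63, Ccnb2 by -7.55, Bub1 by -6.89, and Anp32e and Cdc20 by -6.67 each. Ccnb2 had values of 2.30, 2.37 and 12.78 in HSC and Bub1 of 2.30, 2.37 and 12.18, against lowest values of 8.10 and 9.38 in E10.5 cluster cells, so the populations overlap only through the few bright HSC. The genes that were in nearly every HSC differed less, with Lbr at -2.04 and Hmgb2 at -2.54, although Cks1b differed by -3.76. Kif23 (-0.99), Gas2l3 (-0.38) and Psrc1 (-0.16) fell short of 1 unit, and they were above background in 13, 6 and 8 of the 28 E10.5 cells. Without the 6 cells the counts in HSC against E12.5 and E10.5 cluster cells were again 44 and 45 lower, where 38.6 and 56.4% of all measured genes were. With quantile normalization 38 and 32 were lower, where 18.5 and 24.8% of all measured genes were.

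Other cell cycle genes were counted in the same comparisons. Of all measured genes, 45.9% were higher and 7.36% lower in HEC than EC, and 43.1 and 15.7% in E10.5 cluster cells than HEC. The shares were 5.47 and 39.9% in E12.5 than E10.5 cluster cells, and 7.91 and 36.9% in HSC than E12.5 cluster cells. Of 61 other G2 and mitosis genes, such as Plk1, Bub1b and Ccna2, 25 were higher and 11 lower in HEC than EC, 42 and 0 in E10.5 cluster cells than HEC, 3 and 33 in E12.5 than E10.5 cluster cells, and 0 and 51 in HSC than E12.5 cluster cells. Of 34 S-phase genes, 30 were higher and 0 lower in E10.5 cluster cells than HEC and 0 and 32 in E12.5 than E10.5 cluster cells, with a median of -2.77 in the latter. In HSC, 21 S-phase genes were lower and 1 higher than in E12.5 cluster cells, with a median of -1.39, beside -3.32 for the 48 genes. Against E10.5 cluster cells, 33 S-phase genes were lower in HSC and 0 higher, where 55.5% of all measured genes were lower and 5.01% higher. Their median was -4.19, beside -3.83 for the 48 genes. Of the 61 other G2 and mitosis genes, 53 were lower and 0 higher in that comparison. Among regulators of G2 and mitosis transcription, Foxm1 passed background in 10 of 28 cluster cells at E10.5 and 5 of 26 HSC, and Mybl2, which encodes B-MYB, in 21 of 28 and 4 of 26. The CDK1-inhibiting kinase Wee1 was in 26 of 28 E10.5 cluster cells and 16 of 26 HSC, with mean log2 values of 9.89 and 7.55. The G1 cyclin Ccnd1 ran the other way, in 2 of 28 E10.5 cluster cells and 13 of 26 HSC, with means of 2.81 and 5.46. It was the only gene of its list counted as higher in HSC than in E10.5 cluster cells. Ccnd2 rose by less than 1 unit, from a mean of 7.51 in E10.5 cluster cells to 7.93 in HSC. Of 8 measured G1 cyclins and kinases, 1 was higher and 6 were lower in HSC than in E10.5 cluster cells, with a median of -1.80. In that comparison 5.01% of all measured genes were higher and 55.5% lower. Against E12.5 cluster cells, 2 of the 8 were higher in HSC, Ccnd1 (2.73) and Ccnd2 (2.22), and 1 was lower. Of the 6 measured CDK inhibitors, 1 was higher and 3 were lower in HSC than in E10.5 cluster cells. The higher one, Cdkn1c, was in 7 of 7 HEC at a mean of 11.76, in 7 of 28 E10.5 cluster cells at 3.81 and in 11 of 26 HSC at 5.08. The lower ones were Cdkn3 (-3.23), Cdkn1a (-3.10) and Cdkn2d (-2.17).

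Set side by side in each cell, S-phase genes and the 48 genes rose together only in part. Their means per cell had r = 0.58 over 84 cells after population means were subtracted, yet some cells held many of 1 set alone. HSC 7, 6, 10, 16 and 17, with 23 to 36 of the 48, held 29 to 31 of the 34 S-phase genes. Of these, cell 7 is among the cells whose markers go against their gate. HSC 15, 14 and 1, with 43, 46 and 47 of the 48, held 26, 23 and 18. HSC 4, 23, 19, 11 and 26, with 10, 5, 10, 8 and 9 of the 48, held 25, 24, 23, 21 and 21. Thus some HSC had most S-phase genes and few of the 48, and the HSC with the most of the 48 had fewer S-phase genes than those in between. Among E12.5 cluster cells, cells 8, 9 and 13 held 45, 42 and 40 of the 48 with 22 S-phase genes each, and among E10.5 cluster cells, cell 13 held 47 with 27. Other cells were low or high in both. E12.5 cluster cells 1, 3, 7 and 11, with 4, 4, 8 and 7 of the 48, held 3, 7, 10 and 11 S-phase genes. E12.5 cluster cell 14 held 43 with 31, and E10.5 cluster cell 14 held 46 with 33. Every E10.5 cluster cell held at least 24 S-phase genes.

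**Figure D5:**
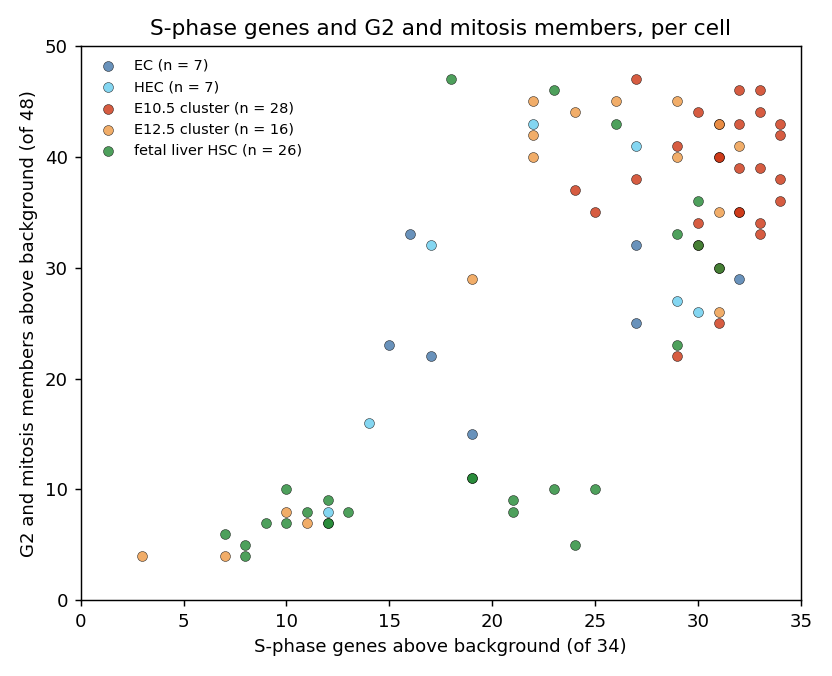
For each cell, the number of S-phase genes above background (of 34, x axis) and the number of the 48 G2 and mitosis genes above background (y axis), coloured by population. HSC run from 5 of 48 with 24 S-phase genes and 30 of 48 with 31 to 47 of 48 with 18, while E10.5 cluster cells stay at 22 or more of the 48 and 24 or more S-phase genes. Other HSC are low in both, as cell 24 with 6 of 48 and 7 S-phase genes.

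Within populations the genes varied together from cell to cell. After each population's mean was subtracted, a gene's Pearson r with the mean of the other members over 84 cells ran from 0.36 to 0.87, with a median of 0.65. The cells share depth, and the mean over the genes had r = 0.66 with the number of probe sets above background, so these are descriptions. Mki67 (0.87), Bub1 (0.82), the mitotic entry factor Cdca3 (0.81) and Ube2c (0.80) stood highest, and Gas2l3 (0.36), Lbr (0.44), Ckap5 and Psrc1 (0.46 each) lowest. Within a population the median r was 0.53 in the E10.5 cluster, 0.83 in the E12.5 cluster and 0.74 in HSC. Trip13 had r = -0.05 in E10.5 cluster cells, where 27 of 28 held it, and Lbr 0.17 in HSC.

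The genes outside the 48 whose values per cell were most like their mean were sought over the same 84 cells, among 8793 genes above background in at least 10 cells, whose median r was 0.14. The 10 highest were Ccna2 (0.84), Kif20a (0.83), Ncapg (0.80), Bub1b and Shcbp1 (0.78 each), Pbk, Plk1 and Spag5 (0.74 each), Incenp (0.73) and Spc24 (0.72). Ccna2, cyclin A, passed background in 28 of 28 cluster cells at E10.5, 11 of 16 at E12.5 and 8 of 26 HSC. Plk1, the kinase that helps to activate CDK1, was in 20, 9 and 5 of these cells. The transcription factor Foxm1 had r = 0.48 and Mybl2 0.19, and the S-phase genes' mean had 0.58 against 0.94 for the mean of the other G2 and mitosis genes. Ccnd1 had r = -0.14 and Cdkn1c 0.09.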

How the data were processed

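Expression was measured in 85 single cells, each on an Affymetrix array with 45101 probe sets. The authors deposited log2 values of expression. Per the submitters' processing notes these came from GCRMA of the affy package, and their versions are not given in the sources here. No array was normalized again. Probe sets were named from the platform annotation, where 34958 had 1 gene symbol, 932 several and 9211 were not listed, and a gene was read on its brightest probe set with 1 symbol. Of the 48 genes with a probe set, 37 had several, and 3.40% of the genes' values lay between 4 and 6, near the threshold of 5. Differences are of mean log2 values over cells in the fixed populations, with no test.

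The genes and lists were chosen with earlier results of these data known. All members may be named. Other names follow 1 rule: per comparison the 5 largest positive and 5 largest negative differences, of genes outside the members the 10 with the highest r, and list genes that differed by 1 or more. Foxm1 was named for its role, after its values were seen. Alternatives changed the threshold (4 or 6), the filter, the scaling, the probe set, the summary, the called size (2) and the cells. The calculation was tested on simulated data. Python 3.11.15, numpy 2.4.6, pandas 2.3.3 and scipy 1.17.1 were used.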

Additional observations from a re-analysis of the deposited data

Results flagged for a closer look

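In the populations of 4 to 10 cells, EC and HEC, 16 of the 102 sets of values had 1 cell set far apart from the other cells of its population by Dixon's criterion. It flags about 1 in 20 by chance where values are normally distributed. Here many values pile up at background, so a gene held or lacked by 1 cell alone is readily flagged. The 16 are therefore not read as an excess. The members that most cells lacked gave 1 bright cell each: among EC, Ndc80 was at 8.79 in cell 6, Kif11 at 9.21 in cell 7, Ttk at 11.52 and Ect2 at 10.78 in cell 3, and Ckap2l at 8.50 and Gas2l3 at 7.99 in cell 4. Among HEC, Kif20b was at 12.43 in cell 3 and Cdc25c at 8.17 in cell 1, with the other 6 HEC at or below 2.35 and 3.81.

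The members that most cells held gave 1 dim cell each. Among EC, Top2a was at 2.56 in cell 1, with the others at 8.75 to 13.22, and Cks1b at 7.47 in cell 4, with the others at 13.34 to 14.94. Among HEC, Birc5 was at 2.35 in cell 4 and Anp32e at 2.32 in cell 7. HEC 5, which held 8 of the 48 members, stood apart in Cks2 (2.33), Nuf2 (2.33), Tmpo (3.87) and Lbr (3.28), although 42.5% of measured genes were above background in it. EC 3, with Ttk and Ect2, is the cell that held germ-cell genes, and its part in these values was not tested.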

How the results depend on the processing

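No paired analysis was possible because the cell numbers only name single cells that share no stated animal, and no test was made. For HEC minus EC, the count of 26 higher members became 12 with shifted cells, 9 with quantile normalization, 16 with each gene's probe sets averaged and 11 at a size of 2. The 4 lower became 10, 11, 2 and 1 in the same order, 8 with medians over cells and 2 without the 6 cells, and the median of 1.19 became -0.20 with quantile normalization, 0.22 with shifted cells, 0.28 with medians over cells and 0.54 with probe sets averaged. For E10.5 cluster minus HEC, the 34 higher became 21 over cells with both controls at the shared value and 19 at a size of 2, and the 3 lower became 7, 0 at that size and 7 with quantile normalization. The median of 1.68 became 0.58 over cells with both controls. For E12.5 minus E10.5 cluster, the 5 higher became 9 with quantile normalization, 2 with the mean of probe sets, 11 with medians, 10 without the 6 cells and 1 at a size of 2, and the 24 lower became 14 with quantile normalization, 10 with medians and 13 at a size of 2. The median of -0.95 changed sign with medians over cells (0.24) and became -0.24 with quantile normalization. With the mean of probe sets, 3.50% of all measured genes were higher in this comparison and 31.0% lower. At a size of 2 and with 1 cell left out, the shares of all measured genes were not counted. The 0 members higher in HSC became 2 against E12.5 cluster over cells with both controls and 1 against E10.5 cluster with quantile normalization. Over the settings, 35 to 44 were lower than in E12.5 and 32 to 46 than in E10.5 cluster cells. The medians of -3.32 and -3.83 ran from -5.60 to -1.56 and from -5.76 to -2.04. The smallest came with probe sets averaged, where 35 and 39 of 47 members and 27.4 and 48.5% of all measured genes were lower. With the mean of probe sets the mean level fell from 6.52 to 5.34 in EC and from 9.25 to 7.17 in E10.5 cluster cells, whose median count became 32. Thresholds of 4 and 6 and no filter enter the higher and lower counts and the median differences only through which members are measured. They are therefore no test of these values. With 2 cells in place of the averaged pair, no count of higher or lower members moved by over 1.5 times. No median difference then moved by as much as the larger SD over cells of the mean level in its populations.

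Leaving out 1 cell at a time gave 18 to 31 higher and 2 to 8 lower members for HEC minus EC (8 and 7 lower without HEC 2 and 3, 2 and 7 without EC 3 and 5). It gave 25 to 38 and 1 to 5 for E10.5 cluster minus HEC (5 without HEC 1, 1 without HEC 3), 3 to 9 and 19 to 27 for E12.5 minus E10.5 cluster, and 43 to 44 and 43 to 46 lower for the comparisons of HSC. The medians ranged from 0.43 to 1.72, 1.13 to 2.41 and -1.20 to -0.48 in the first 3 comparisons. Among single genes Cdca8 for HEC minus EC became 0.35 with medians and ranged from -2.18 to 0.016 with 1 cell left out, with 0.016 without HEC 4 and 0.01 without HEC 5, Ckap2 became 0.044 over cells with both controls, and Kif23 for E10.5 cluster minus HEC ranged from -1.84 to -0.21. The cause was not tested in any of these cases. With 7 cells in EC and in HEC, and 1 sample per population, the number of cells limits each value.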
